A study of Mus musculus with 38 samples.

Results

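Mouse embryonic fibroblasts (MEFs) that carried Oct4 together with the JGES factors were compared with MEFs that carried JGES alone, at day 7 of reprogramming and without BMP4. JGES stands for *Jdp2*, *Glis1*, *Esrrb* and *Sall4*, and JGESO for the same 4 factors plus *Oct4* (gene symbol *Pou5f1*). The comparison was made across genes in the bulk RNA-seq table of 8 libraries, with the JGESO library on one side and the JGES library on the other. Of 37108 rows of that table, 1550 short RNAs and 187 second names of a gene with identical values were left out. Of the remaining 35371 names, called genes below, 10132 reached 5 FPKM in JGES or JGESO. Second names with other values remained, such as *Toporsos* beside *Smim27*, so some genes are counted more than once. FPKM are mapped fragments scaled by transcript length and by the total of the library. Of the 10132 genes, 6421 reached this level in both libraries, 945 in JGESO only and 2766 in JGES only.

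Both cultures started from MEFs of E13.5 embryos of OG2 and 129S4/SvJaeJ crosses, which carry a GFP reporter of *Oct4*, and such MEFs are a mixture of embryonic cell types. The factors were delivered on pMXs retroviruses, and both cultures were kept in iCD3 medium, which held vitamin C, LIF, bFGF, the GSK3 inhibitor CHIR99021, the ROCK inhibitor Y27632, the DOT1L inhibitor SGC0946, an inhibitor labelled LSD1-HCL and a component labelled TV. The other libraries used below are JGES and JGESO with BMP4 at 10 ng/ml, JGE and JGEO (the same sets without *Sall4*) with and without BMP4, JGES at days 0 and 5, single-cell RNA-seq of JGES at day 7 without BMP4, and a SALL4 Cut&Tag peak list of cells with wild-type SALL4 alone at day 6. Each condition has 1 library, so no difference below has a replicate check and no p-value is given.

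OCT4 is a POU-domain transcription factor that binds the octamer sequence and, with SOX2, maintains the pluripotent state. SALL4 is a zinc-finger factor of the same network that recruits the NuRD chromatin remodeling complex. Primitive endoderm (PrE) is the extra-embryonic lineage that is set apart from the pluripotent epiblast in the blastocyst, is marked by GATA6, GATA4 and SOX17, and gives rise to the visceral and parietal endoderm of the yolk sac. BMP4 acts through SMAD proteins, which turn on *Id* genes in most cells. The comparison asks how gene expression differs when Oct4 is added to JGES while BMP4 is absent.

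The JGES and JGESO libraries also differ in how they are labelled. The labels describe the JGES libraries as total RNA and the JGE, JGEO and JGESO libraries as polyA RNA, while the extraction and library text is the same for all. The JGES library is also part of a time course in a second table of 17 libraries, where 99.1% of 14166 genes lie within 0.1% of a median ratio of 0.975 between the tables. *Lars2*, a mitochondrial tRNA synthetase gene, was at 26.2 FPKM in JGES and 17.4 in JGES with BMP4, against 359 to 731 in the 6 other libraries. The share of mitochondrially encoded genes in the FPKM sum ran with Oct4 instead, from 9.97% to 16.3% in the 4 libraries without it (13.0% in JGES) and from 5.49% to 6.38% in the 4 with it (5.49% in JGESO). Genes of ribosomal proteins held 12.3% in JGES and 16.2% in JGESO. The log2 FPKM of JGESO correlated across genes at r = 0.96 with JGESO with BMP4, 0.87 with JGEO, 0.84 with JGEO with BMP4, 0.72 with JGE and 0.67 with JGES, and those of JGES and JGE at 0.74. The addition of Oct4 and the difference in labelled RNA cannot be told apart in the pair JGESO and JGES, nor in the same pair with BMP4, while the pair JGEO and JGE lies within the polyA set.

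The delivered factors were read first. *Pou5f1* was at 224 FPKM in JGES and 369.6 in JGESO, a 1.65-fold level. In the libraries without exogenous *Sall4* it was listed at 0 in JGE and stood at 1569.9 in JGEO, and in JGES with BMP4 it was at 5.94. The JGES library without BMP4 thus already contained *Pou5f1* RNA, and FPKM do not separate viral from endogenous transcripts. *Sall4* was at 273 FPKM in JGES and 174 in JGESO, and *Esrrb*, an orphan nuclear receptor gene, was at 167 and 109. *Jdp2*, which encodes an AP-1 repressor, was at 228 and 319.7. *Glis1*, a zinc-finger factor gene delivered in every set, was listed at 0 in JGES and at 0.20 in JGESO, and reached at most 1.10 in the 8 libraries. Whether the annotation counts the delivered form of *Glis1* is not given in the sources used here, so these values do not show that the factor was unexpressed. None of the 4 detected factors differed by 1 or more on the log2(FPKM + 1) scale, on which all differences below are given as JGESO minus JGES, while after the centring by GC content described below *Sall4* was at -1.17 and *Esrrb* at -1.26.

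With a difference of at least 1 as the limit for calling a gene higher or lower, 1954 of the 10132 genes (19.3%) were higher in JGESO and 3306 (32.6%) were lower. A difference of at least 2 was passed by 264 genes upward and 1659 downward. The median over all 10132 genes was 0.00, with 5076 genes above 0 and 5056 below, so falls past the limit outnumbered rises although similar numbers of genes lay on each side of 0. Over the 14934 genes that reached 1 FPKM in JGES or JGESO, the base for the gene lists below, 2389 (16.0%) were higher and 4916 (32.9%) lower, and the median was -0.23. A gene under 1 FPKM in either library enters this base only through the other, so the filter sets the direction of its difference. In bulk samples, fewer cells of a type and less RNA per cell cannot be told apart.

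The differences ran with the base composition of the transcripts. Across 9900 genes with a reference transcript, the difference correlated with the GC content of the transcript at Pearson r = 0.73, as a description over genes of 2 libraries. The decile of genes with the lowest GC content (31.0% to 42.5%) had a median difference of -2.27, and the decile with the highest (58.7% to 72.8%) had a median of 1.00. Within the JGESO library the median FPKM of these deciles was 1.86 and 22.9, within JGES it was 12.5 and 11.6, and within JGEO it was 3.93 and 17.4. The genes called higher had a median GC content of 56.3% and the genes called lower 45.02%, against 51.3% over the genes tested. The lower genes also had longer transcripts, with a median of 3731 bases against 2242 bases for the higher genes. The correlation with GC content was 0.62 in JGESO minus JGES with BMP4, 0.41 in JGEO minus JGE and 0.16 in JGEO minus JGE with BMP4.

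**Figure D1:**
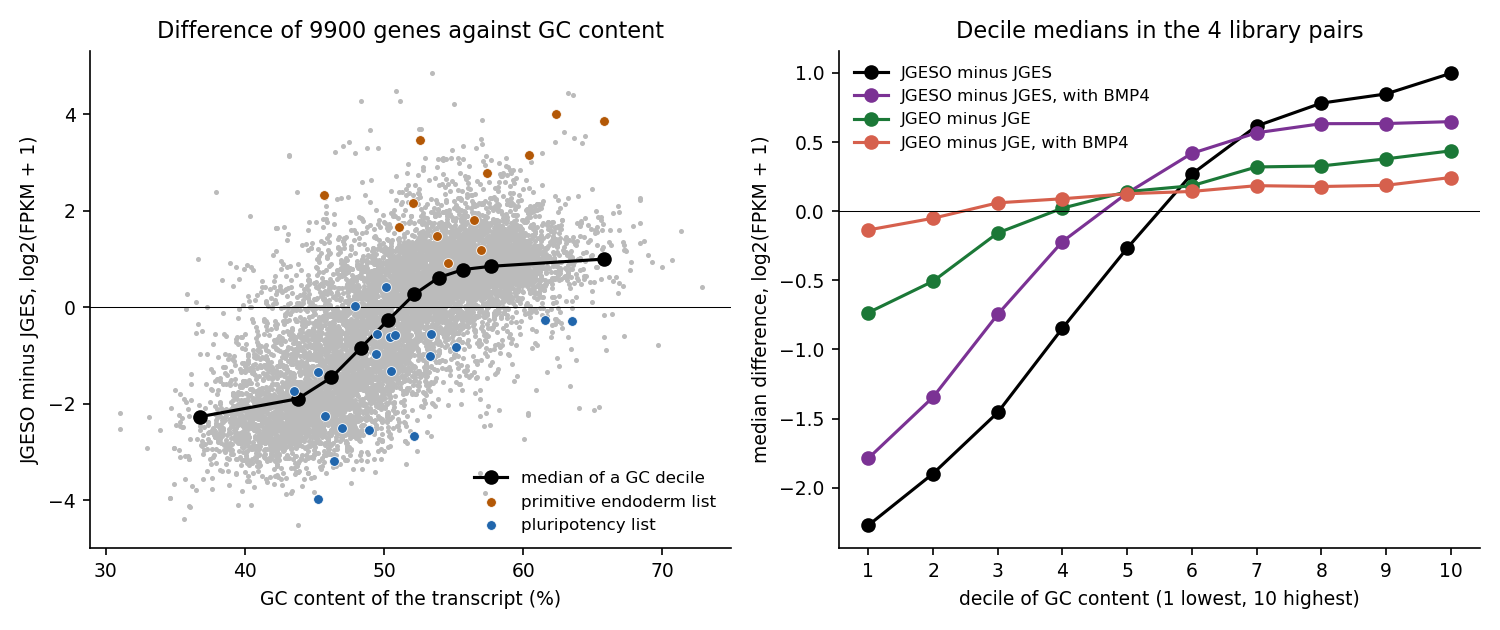
The left panel plots the JGESO minus JGES difference of log2(FPKM + 1) of 9900 genes (grey points) against transcript GC content in percent, with decile medians in black and the genes of the PrE and pluripotency lists in color. The right panel plots the decile medians in the 4 pairs of libraries with and without Oct4, and the JGESO and JGES pair spans the widest range, from -2.27 to 1.00.

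The central stretch of the coding sequence of 4 genes shows this contrast, each with 120 bases from the transcripts of the GRCm38 genome and every G and C in capitals. *Atrx*, which encodes a chromatin remodeler (chromosome X, 105797615 to 105929403, minus strand), was at 38.5 FPKM in JGES and 1.29 in JGESO, and *Top2a*, the DNA topoisomerase of dividing cells (chromosome 11, 98992943 to 99024189, minus strand), was at 98.1 and 6.05. *Tbx2*, a T-box repressor gene (chromosome 11, 85832551 to 85841948, plus strand), was at 1.88 and 61.8, and *Amn*, which encodes amnionless, the partner of cubilin in endocytosis (chromosome 12, 111271095 to 111276426, plus strand), was at 12.01 and 159.6. The stretches of *Atrx* and *Top2a* hold 50 G or C bases each, that of *Tbx2* 93 and that of *Amn* 83.
Atrx: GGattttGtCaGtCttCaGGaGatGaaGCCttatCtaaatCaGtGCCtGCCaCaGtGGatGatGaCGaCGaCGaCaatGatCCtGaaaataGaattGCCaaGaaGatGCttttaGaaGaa
Top2a: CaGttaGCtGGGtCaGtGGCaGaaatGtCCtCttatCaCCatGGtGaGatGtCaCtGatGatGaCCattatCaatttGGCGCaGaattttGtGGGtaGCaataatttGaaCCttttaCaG
Tbx2: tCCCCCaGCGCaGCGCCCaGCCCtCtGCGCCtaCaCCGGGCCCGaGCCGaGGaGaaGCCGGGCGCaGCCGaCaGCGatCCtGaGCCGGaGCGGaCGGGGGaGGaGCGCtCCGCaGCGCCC
Amn: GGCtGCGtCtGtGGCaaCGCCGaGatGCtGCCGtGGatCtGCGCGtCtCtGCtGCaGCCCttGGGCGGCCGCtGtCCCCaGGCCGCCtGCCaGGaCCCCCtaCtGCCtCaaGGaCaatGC

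Each gene was therefore also centred on the median of the genes with the same GC content, in 20 bins, a step chosen after the data were seen. After this step 1301 of 9900 genes (13.1%) were higher and 1139 (11.5%) lower, so that 53.3% of the calls were upward against 37.1% before. Of the higher genes with a GC value, 560 of 1908 (29.4%) stayed past 1, and of the lower genes 840 of 3217 (26.1%) did, while 801 of the lower genes came to lie above 0. On the base for the gene lists, 1682 of 14132 genes (11.9%) were higher and 1771 (12.5%) lower after centring. Centring removes any part of the Oct4 difference that runs with GC content as well, and the cause of the trend was not tested. Medians of the lists in JGESO minus JGES are given as deposited and after centring.

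**Figure D2:**
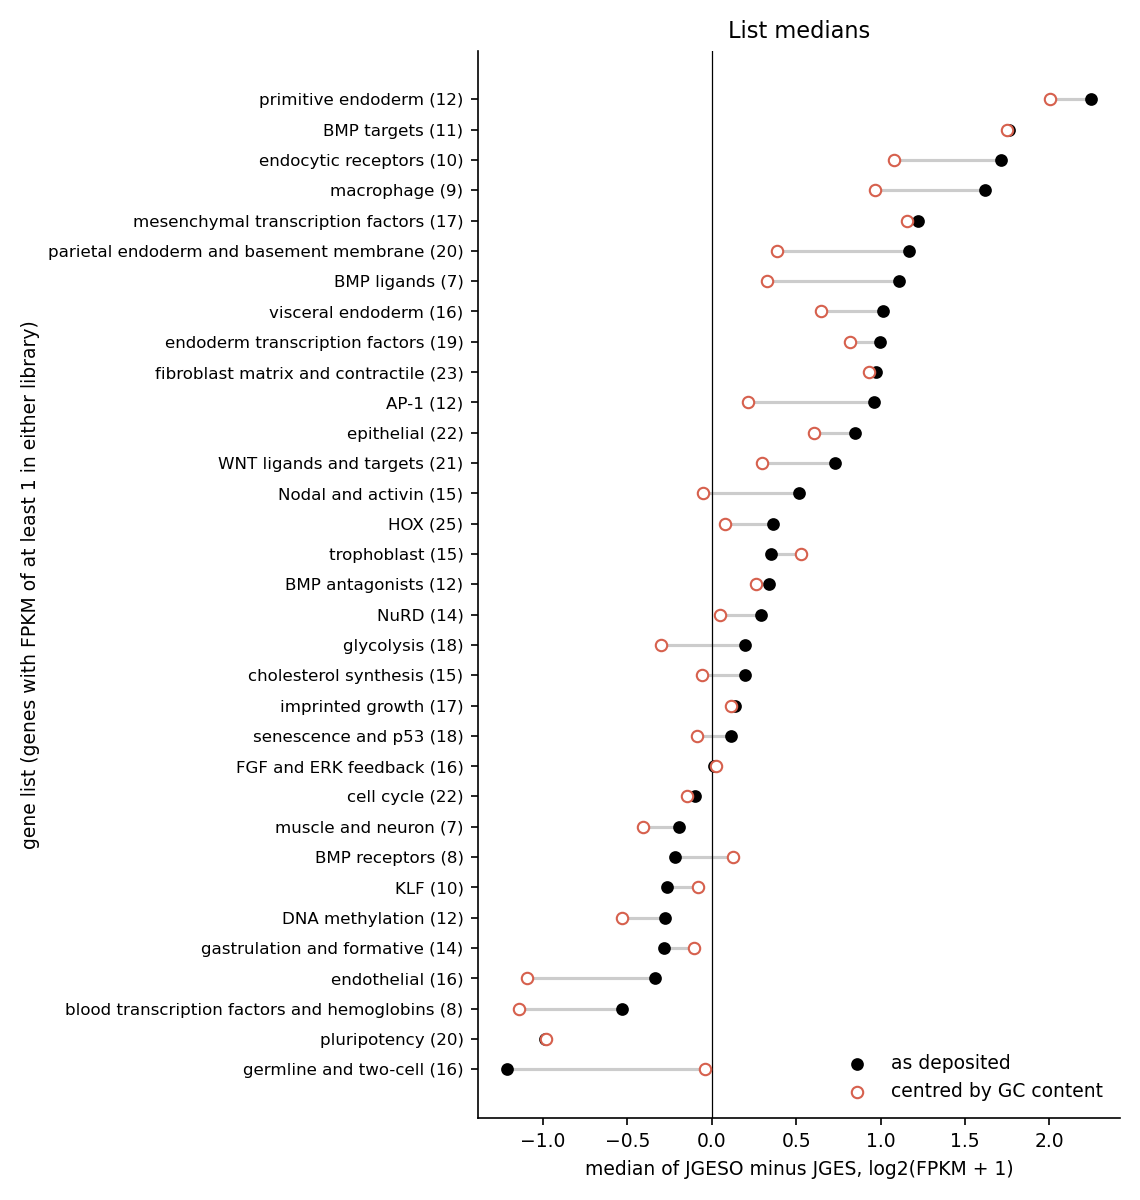
Each row is a gene list with its number of measured genes, and the x axis is the median JGESO minus JGES difference of log2(FPKM + 1), with filled points for the values as deposited and open points after centring by GC content. The PrE list has the highest median in both forms (2.24 and 2.00), and the pluripotency list keeps its median (-0.99 and -0.98).

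PrE genes were higher in JGESO. Of the 12 PrE genes, which the study chose with these cells in view and which are therefore no independent evidence of a direction, 11 were higher by at least 1, 0 were lower, and the median difference was 2.24. *Gata4* (chromosome 14, 63198922 to 63271692, minus strand), a zinc-finger factor gene of the endoderm, was at 10.0 FPKM in JGES and 75.2 in JGESO. *Gata6*, which acts upstream of it in the blastocyst, was at 11.8 and 43.7. *Sox17* (chromosome 1, 4490931 to 4497354, minus strand), an HMG-box factor gene, was at 3.03 and 43.6, a 14.4-fold level. All 3 endoderm regulators were thus, as deposited, at several times their JGES level. *Pth1r*, a receptor gene of parietal endoderm, was at 7.58 and 75.7, and *Lama1*, a laminin chain gene of the basement membrane, at 29.3 and 83.5. As deposited the widest differences were those of *Cited1* (4.01), a transcriptional coactivator gene with 5.38 FPKM in JGES and 102 in JGESO, and of *Pitx1* (3.85), a homeobox gene with 2.65 and 51.8. *Foxa2* stood at 10.5 and 25.2. *Klf4*, the member that did not reach 1, was at 24.8 and 47.6, a difference of 0.91.

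Centred by GC content, 9 of the 12 PrE genes were still higher by at least 1 and the median was 2.00. *Foxa2* (0.45) and *Lama1* (0.95) dropped under 1, and *Klf4* came to 0.27. *Gata4* moved from 2.79 to 2.06 and *Gata6* from 1.80 to 1.07. *Dab2*, an endocytic adaptor gene with a GC content of 45.7%, went the other way. It was at 9.57 FPKM in JGES and 51.9 in JGESO, a difference of 2.32 that became 3.64 after centring, the widest of the list in that form before *Sox17* (3.26), *Cited1* (3.13) and *Pitx1* (2.98). In JGESO with BMP4 *Gata4* was at 57.2 FPKM, *Sox17* at 35.5 and *Dab2* at 75.2. In JGES with BMP4 *Gata4* was at 20.3 FPKM and *Sox17* at 12.3, above JGES and below JGESO in both cases. Without exogenous *Sall4*, *Gata4* was at 0.44 in JGE and 0.34 in JGEO, and *Sox17* at 0.035 and 0.058, so neither library of that pair reached 1 FPKM.

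**Figure D3:**
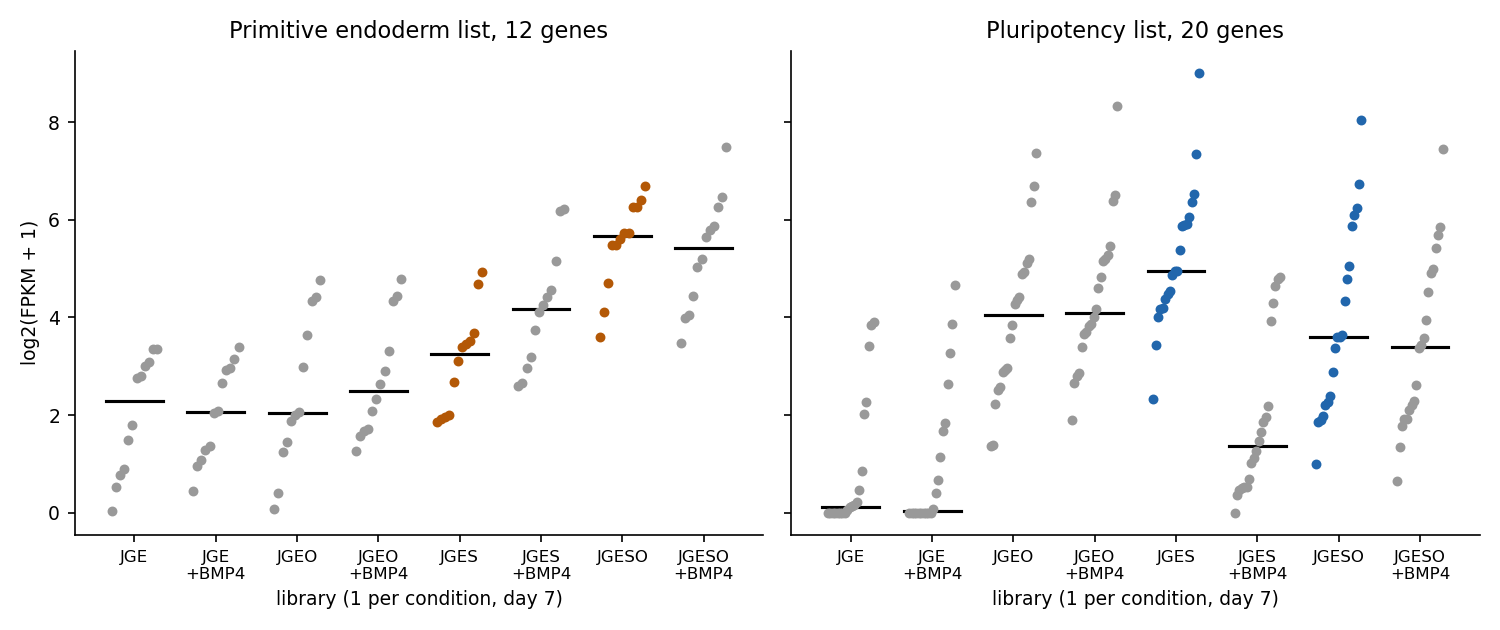
Points are the 12 PrE genes (left) and 20 pluripotency genes (right) in each of the 8 day 7 libraries, sorted within a library, on a log2(FPKM + 1) axis, with the median as a bar and the JGES and JGESO libraries in color. The summed FPKM of the PrE genes is 120.3 in JGES and 627 in JGESO, and that of the pluripotency genes is 1343 and 715.

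Pluripotency genes were lower or within 1. Of 20 genes, 0 were higher by at least 1, 10 were lower, and the median was -0.99. *Nanog* (chromosome 6, 122707489 to 122714633, plus strand), a homeobox gene of the core network, was at 59.0 FPKM in JGES and 11.5 in JGESO. *Tdgf1*, which encodes the Nodal co-receptor Cripto, had the widest difference of the list (-3.98), with 58.5 and 2.76 FPKM. *Zfp42* (Rex1), a marker of naive cells, was at 40.9 and 3.63, and *Tfcp2l1*, a factor gene of the naive state, at 21.4 and 2.94. *Dppa4* was at 30.02 and 4.29 and *Tcl1*, which encodes a coactivator of AKT, at 22.2 and 2.65. These genes kept from 0.047 to 0.20 of their JGES level. *Sox2*, the partner gene of *Oct4*, was at 161 and 105, a difference of -0.61. *Dppa5a*, an RNA-binding protein gene, stood at 514 and 262, *Utf1* at 91.6 and 74.6, and *Klf2* at 80.8 and 67.3. *Klf5* (57.2 and 58.0) and *Lin28a* (19.8 and 26.7) were the 2 members that were not below JGES.

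After centring by GC content 9 pluripotency genes were lower by at least 1, 0 were higher and the median was -0.98. The members that passed were in part other genes. *Nanog* moved from -2.26 to -0.94, while *Utf1* moved from -0.29 to -1.17 and *Klf2* from -0.26 to -1.14. *Tdgf1* (-2.67), *Tcl1* (-2.88), *Zfp42* (-1.97) and *Dppa4* (-1.97) were past 1 in both forms. In JGES with BMP4 *Nanog*, *Sox2* and *Dppa5a* were at 1.78, 14.2 and 18.7 FPKM, each below its JGESO level. In JGE the same 3 genes were at 0.082, 13.9 and 0, and in JGEO at 19.6, 102 and 164.

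Promoters of PrE and pluripotency genes were searched for the words of the OCT4 and GATA factors on both strands, in the 250 bases before the start site as RefSeq gives it on GRCm38.p6. The octamer was searched as ATGCAAAT and its core as ATGCAAA, which lies inside it, and the GATA words as AGATAA or TGATAA. Of the 10132 genes, 7714 had a promoter in the table. Of these genes 1.41% had the octamer in a promoter, 3.51% its core and 9.94% a GATA word. Over all 27025 promoters of the table the shares were 1.81%, 4.65% and 18.8%, per promoter rather than per gene, and a gene may have several. Of 12 pluripotency genes with a promoter, *Zfp42* held the octamer, *Nanog*, *Sox2* and *Zfp42* held the core, and *Tdgf1* and *Tcl1* held a GATA word. Of 7 PrE genes with a promoter, 2 held a GATA word and 0 the octamer. These 2 genes, *Dab2* and *Foxa2*, also have other promoters without a GATA word, which are not printed. Of the higher genes with a promoter 3.49% held the core and of the lower genes 3.44%, both close to the share over all genes tested. The promoters printed, with the word in capitals, are those of a pluripotency gene with the core (*Nanog*, chr6:122707239-122707488, plus strand), of the one with the octamer (*Zfp42*, chr8:43307010-43307259, minus strand), and of the PrE genes with a GATA word (*Dab2*, chr15:6299539-6299788, plus strand, and *Foxa2*, chr2:148045465-148045714, minus strand). A match of letters describes the sequence only.
Nanog: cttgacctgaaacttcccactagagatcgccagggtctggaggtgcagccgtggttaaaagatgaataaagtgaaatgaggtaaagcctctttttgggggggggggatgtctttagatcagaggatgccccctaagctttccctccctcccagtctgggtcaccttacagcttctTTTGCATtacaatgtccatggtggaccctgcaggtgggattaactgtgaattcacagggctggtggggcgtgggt
Zfp42: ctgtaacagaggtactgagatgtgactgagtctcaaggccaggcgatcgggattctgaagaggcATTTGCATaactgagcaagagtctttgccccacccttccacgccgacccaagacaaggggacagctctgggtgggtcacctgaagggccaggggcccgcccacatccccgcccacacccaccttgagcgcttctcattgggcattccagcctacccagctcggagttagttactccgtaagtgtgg
Dab2: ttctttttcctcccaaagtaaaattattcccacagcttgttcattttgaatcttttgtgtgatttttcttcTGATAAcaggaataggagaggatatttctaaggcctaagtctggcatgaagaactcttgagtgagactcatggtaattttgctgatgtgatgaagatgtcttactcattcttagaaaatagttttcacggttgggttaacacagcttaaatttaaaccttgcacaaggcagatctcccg
Foxa2: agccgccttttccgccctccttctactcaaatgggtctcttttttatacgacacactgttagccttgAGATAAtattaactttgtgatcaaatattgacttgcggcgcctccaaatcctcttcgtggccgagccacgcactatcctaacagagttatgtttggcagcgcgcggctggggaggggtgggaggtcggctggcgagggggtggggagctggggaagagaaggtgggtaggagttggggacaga

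A wider list of endoderm transcription factor genes shares 4 members with the PrE genes (*Gata4*, *Gata6*, *Sox17* and *Foxa2*), all of them higher. Of its 19 measured genes 9 were higher and 1 was lower, with a median of 1.00 (9, 2 and 0.82 after centring). Of the 15 genes that are not PrE genes, 5 were higher and 1 was lower, with a median of 0.44. *Foxq1*, a forkhead gene, was at 8.20 FPKM in JGES and 89.9 in JGESO. *Hnf4a*, a nuclear receptor gene of visceral endoderm, was at 0.79 and 4.98, and *Foxa3* at 0.36 and 7.64. Both entered the list only through JGESO, so the filter set their direction. *Sox7* (5.12 and 9.55) and *Hhex* (10.5 and 10.3) stayed within 1. *Otx2* was the lower gene at 1.74 and 0.29, and it entered the list only through JGES.

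Basement membrane genes of parietal endoderm were led by the collagen IV chains. *Col4a1* was at 104 FPKM in JGES and 864 in JGESO, *Col4a2* at 79.3 and 644, and *Sparc*, a matrix protein gene with very high levels in parietal endoderm, at 242 and 1233. Of 20 genes of this list, which holds the PrE gene *Lama1*, 12 were higher and 2 lower with a median of 1.17, and 7 were higher and 1 lower after centring with a median of 0.39. *Pdgfra*, a receptor gene of PrE, was one of the lower genes at 18.5 and 7.45, and *Vim* was the other at 251 and 114. The collagen IV genes and *Sparc* stayed past 2 after centring (2.26, 2.13 and 2.13). In JGEO, *Col4a1* stood at 41.4 and in JGE at 54.9 FPKM.

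Genes of visceral endoderm and of its endocytic apparatus were read next. Of 16 visceral endoderm genes 8 were higher and 3 lower (median 1.01), and 7 and 0 after centring (0.64). Of 10 endocytic genes, with the PrE gene *Dab2* among them, 6 were higher and 0 lower in both forms (median 1.71, 1.08 after centring). *Ihh*, a hedgehog ligand gene of visceral endoderm, was at 2.19 FPKM in JGES and 33.1 in JGESO. *Ttr*, which encodes a thyroid hormone carrier, was at 1.52 and 22.5, and *Apoa1* at 1.504 and 10.2. *Apob*, the apolipoprotein gene of the same secretory program, was lower at 4.98 and 0.37, a difference of -2.13 that became -0.54 after centring. *Amn* and *Cubn* encode the 2 parts of one receptor. *Amn* was higher (3.63) and *Cubn* was not, with 13.3 FPKM in JGES and 8.18 in JGESO.

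BMP target genes were higher in JGESO although neither culture received BMP4. Of 11 targets 8 were higher by at least 1, 0 were lower, and the median was 1.76 as deposited and 1.75 after centring. Without BMP4 the targets summed to 235 FPKM in JGES, 1033 in JGESO, 384 in JGE and 566 in JGEO. Fibroblast markers moved the same way, from 85.9 FPKM in JGES to 595 in JGESO. Of the 11 targets 7 were highest in the intermediate cells of the single-cell library described below. *Id1*, an inhibitor of bHLH factors, was at 63.3 FPKM in JGES and 339 in JGESO. *Id3*, of the same family, was at 80.7 and 432. *Msx1*, a homeobox gene, was at 13.3 and 84.7, and *Smad6*, an inhibitory SMAD gene, at 9.04 and 36.1. For *Id1* and *Id3* the JGESO level without BMP4 was above that of JGES with BMP4 (234 and 194) and also above that of JGESO with BMP4 (334 and 316), by less for *Id1* than for *Id3*. *Smad6* was at 52.1 in JGES with BMP4, and *Msx2* at 46.3 against 4.12 in JGES and 16.6 in JGESO, so these 2 targets were below the level seen with BMP4. *Bambi*, a pseudoreceptor gene, was at 8.62 FPKM in JGES, 5.33 in JGESO and 38.0 in JGES with BMP4. After centring *Bambi* was at 0.99 and *Id2* moved from 0.83 to 2.15.

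**Figure D4:**
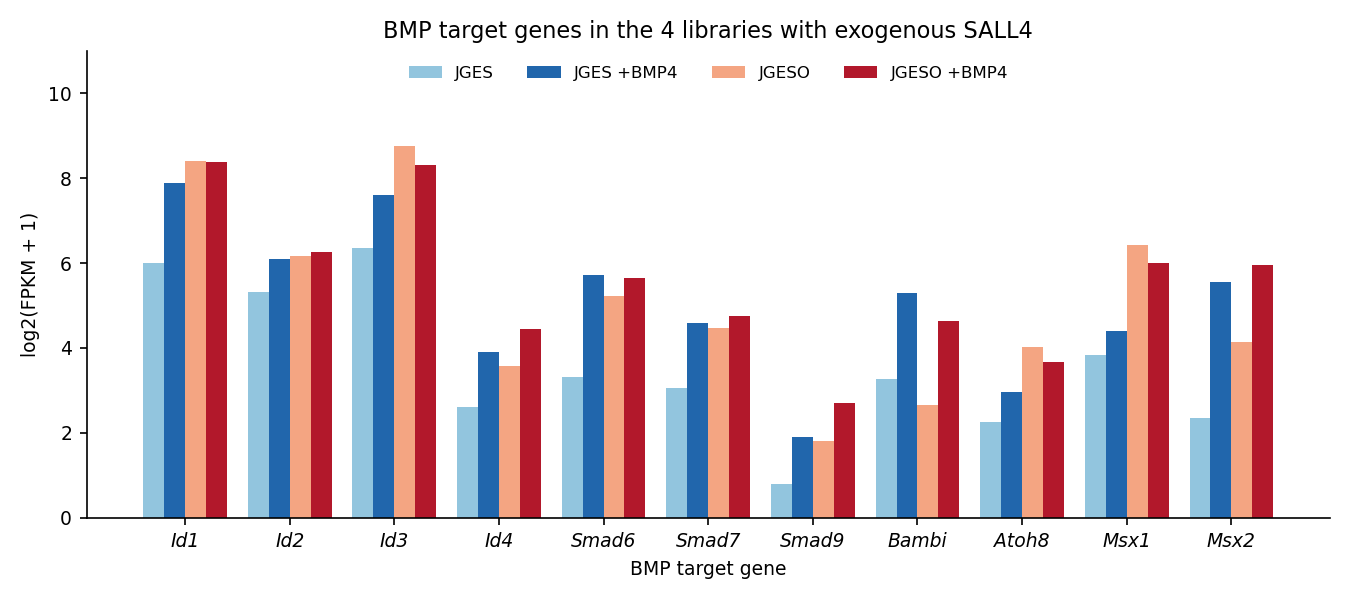
Bars show log2(FPKM + 1) of 11 BMP target genes in JGES and JGESO at day 7 with and without BMP4, 1 library each. The JGESO bar without BMP4 exceeds the JGES bar without BMP4 for every gene but *Bambi* (5.33 against 8.62 FPKM).

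Among the ligands, *Bmp2* was at 1.15 FPKM in JGES and 10.1 in JGESO, and *Bmp6* at 2.73 and 8.02. *Bmp4* itself was at 23.2 and 15.5, and *Bmp7* at 13.4 and 8.86. Only 7 of 13 ligand genes reached an FPKM of 1, of which 4 were higher and 0 lower, with a median of 1.11, and after centring 1 was higher and 2 were lower with a median of 0.33. Of 8 receptor genes 3 were lower and 0 higher (median -0.22), and after centring 0 were lower and 2 higher (median 0.12). *Bmpr1a*, the main type I receptor gene, was at 17.1 and 2.68, a difference of -2.29 in a transcript of 41.3% GC that became -0.50 after centring. Of 12 antagonist genes 3 were higher and 2 lower (median 0.34, 0.26 after centring). *Nbl1*, a secreted antagonist gene, was at 4.69 and 24.2, and *Fst*, which encodes follistatin, at 1.17 and 9.32. *Sost*, which encodes sclerostin, was lower at 23.9 and 3.53 and was at -3.19 after centring.

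Of 21 WNT ligand and target genes 9 were higher and 2 lower (median 0.73), and 6 and 1 after centring (0.30). *Axin2*, a feedback gene of WNT signaling, was at 16.7 FPKM in JGES and 57.5 in JGESO, *Notum* at 9.64 and 36.0, and *Dkk1*, a WNT antagonist gene, at 2.81 and 15.2. *T*, the mesoderm gene brachyury, was lower at 8.94 and 2.50. Of 16 FGF and ERK feedback genes 2 were higher and 1 lower as deposited, and 4 and 1 after centring, with a median of 0.015 and 0.023. The 2 higher genes as deposited were receptors, *Fgfr3* at 1.44 and 9.97 and *Fgfr4* at 0.68 and 13.3. *Fgfr4* entered the list only through JGESO, so the filter set its direction. The ERK target *Etv5* was at 59.5 and 60.2. Of 15 Nodal and activin genes 3 were higher and 3 lower, and the median of 0.51 turned to -0.052 after centring, with 1 higher and 3 lower. *Lefty1* was at 5.33 and 13.1 and *Lefty2*, its paralog, at 11.8 and 4.76. Of 14 gastrulation genes 2 were higher and 3 lower (median -0.28, -0.11 after centring).

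Of 22 epithelial genes 10 were higher and 0 lower (median 0.85), and 7 and 1 after centring (0.60), the lower one being the desmosome gene *Dsp* (-1.17). *Cldn6* and *Cldn7*, tight junction genes, were at 16.8 and 3.07 FPKM in JGES and at 149.8 and 59.2 in JGESO. *Krt8*, a keratin gene of simple epithelium, was at 7.82 and 70.9, and its partner *Krt18* at 47.0 and 126. *Cdh1*, the E-cadherin gene, was at 42.8 and 59.1 and *Epcam* at 39.1 and 45.6, both within 1.

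Of 17 mesenchymal transcription factor genes 9 were higher and 1 lower (median 1.22), and 9 and 0 after centring (1.15). *Twist1*, a bHLH factor gene of mesenchyme, was at 28.9 FPKM in JGES and 215 in JGESO, *Snai1* at 33.2 and 109, and *Prrx2* at 1.77 and 57.8. *Zeb1*, the lower gene as deposited, was at 7.84 and 1.401. Of 23 fibroblast genes 11 were higher and 0 lower (median 0.97), and 9 and 1 after centring (0.93). *Col1a1* was at 19.7 and 153, *Col1a2* at 15.4 and 167, and *Col3a1* at 6.47 and 95.4. *Fn1* (180 and 132) and *Acta2* (7.47 and 7.25), a fibronectin and a smooth muscle actin gene, stayed within 1. In JGE *Col1a1* was at 293 FPKM and in JGEO at 151. The 6 fibroblast markers summed to 85.9 FPKM in JGES, 595 in JGESO, 668 in JGE and 381 in JGEO, and to 967 and 1006 in JGES and JGESO with BMP4. JGES without BMP4 was thus the lowest of the 6 libraries named here.

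Markers of cell types were read in the same pair as deposited. The 6 PrE markers summed to 52.5 FPKM in JGES and 315 in JGESO, with 6 of 6 higher. The 6 pluripotent markers summed to 850.2 and 396, with 3 of 6 lower. These markers are all members of the PrE and pluripotency lists above, so their counts repeat genes already described and add no independent evidence. The endothelial markers summed to 41.6 and 16.3 FPKM, with 3 of 6 lower and *Flt1* higher. *Kdr*, a VEGF receptor gene, was at 13.6 and 1.71, and *Pecam1* at 18.4 and 3.85. Of 16 endothelial genes 4 were higher and 3 lower, and 4 and 9 after centring, when the median moved from -0.34 to -1.10. One of the 4 higher genes in both forms is *Sox17*, counted above as a PrE gene, without which 3 of 15 were higher and 3 lower as deposited. *Cldn5*, a tight junction gene of vessels, was at 28.8 and 25.1.

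Of 8 measured blood genes 2 were higher and 4 lower (median -0.53, -1.14 after centring). The alpha globin gene *Hba-a1* was at 15.9 FPKM in JGES and 0.18 in JGESO, *Lmo2* at 36.8 and 9.08, and *Runx1*, a factor gene of blood stem cells, at 1.76 and 8.14. Reads of *Hba-a1* may be shared with its near-identical copy *Hba-a2*, so both levels are uncertain. Of 9 macrophage genes 8 were higher and 0 lower (median 1.62), and 4 and 0 after centring (0.97). Of the 6 macrophage markers 5 were listed at 0 in JGES, and the sum was 4.76 and 23.9 FPKM. A gene listed at 0 in JGES enters the list only by reaching 1 FPKM in JGESO, which sets a difference of at least 1. The counts and median of the macrophage list are therefore no independent evidence of a direction. *Lyz2*, a lysozyme gene of myeloid cells, was at 0.70 and 31.9, while it was at 0 in JGES with BMP4 and from 66.1 to 116 in JGE and JGEO with and without BMP4. The part of residual macrophages or of the set of libraries in the JGESO and JGES difference was not tested. Of 15 trophoblast genes 5 were higher and 0 lower (median 0.35), and 6 and 2 after centring (0.53), and the 6 trophoblast markers summed to 20.8 and 29.8 FPKM. Of 7 muscle and neuron genes 2 were higher and 1 lower (median -0.20), and 1 and 3 after centring (-0.41).

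Of 14 NuRD genes 1 was higher and 2 lower (median 0.29, 0.05 after centring). *Hdac2*, a deacetylase gene, was at 54.6 FPKM in JGES and 5.81 in JGESO, while *Hdac1* was at 27.3 and 23.4 and *Chd4*, the remodeler gene of the complex, at 88.0 and 56.6. *Mbd3* was at 55.9 and 129. Of 12 DNA methylation genes 1 was higher and 4 lower (median -0.28), and 0 and 3 after centring (-0.53). *Tet1* was at 13.9 and 0.97 and *Tet2* at 11.6 and 0.38, and both stayed past 1 after centring (-1.33 and -1.87). *Tet3*, the third dioxygenase gene, was the higher one at 6.26 and 16.4 and came under 1 after centring. Of 22 cell cycle genes 1 was higher and 7 lower (median -0.098), and 2 and 3 after centring (-0.15). Over all genes at 1 FPKM or more, 32.9% were lower as deposited and 12.5% after centring. The lower cell cycle genes were close to these shares in both forms, and the lower DNA methylation genes as deposited. *Mki67* was at 44.9 and 4.45 and *Mcm6*, a helicase subunit with 47.3% GC, at 44.8 and 15.2, while its partner *Mcm2*, with 55.5% GC, was at 69.4 and 107. Of 16 germline and 2-cell genes 10 were lower and 1 higher, with a median of -1.21, and after centring 3 were lower and 3 higher with a median of -0.042. *Dazl*, a germ cell RNA-binding protein gene, was at 20.1 and 1.56, and *Zscan4f* at 42.8 and 2.71, although members of the *Zscan4* family share reads.

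The remaining groups had medians within 1. Beside their counts stand the shares over all genes at 1 FPKM or more. Of those genes 16.0% were higher and 32.9% lower as deposited, and 11.9% and 12.5% after centring. Of 12 AP-1 genes 5 were higher and 0 lower, and after centring 0 were higher and 1 lower, while the median of 0.96 came to 0.22. *Jund* was at 103 FPKM in JGES and 264 in JGESO. Of 18 senescence and p53 genes 4 were higher and 4 lower (median 0.12, -0.087 after centring), among them *Cdkn2a*, the locus of p16 and ARF, at 24.8 and 104, and *Mdm2*, the p53 ligase gene, at 21.2 and 2.78. Of 17 imprinted genes 4 were higher and 6 lower (median 0.14), and 5 and 2 after centring (0.12). Of 25 *Hox* genes 5 were higher and 1 lower (median 0.36), and 3 and 2 after centring (0.075). Of 10 KLF genes 0 were higher and 3 lower (median -0.27), and 1 and 1 after centring (-0.081). *Hoxa10*, a posterior *Hox* gene, was at 9.57 and 45.6. Of 18 glycolysis genes 5 were lower and 0 higher (median 0.20), and 4 were lower after centring (-0.30), with *Pgk1* at 586 and 119 and *Pfkp* at 29.0 and 2.62. Of 15 cholesterol synthesis genes 3 were higher and 5 lower (median 0.20), and 0 and 2 after centring (-0.059), with *Hmgcs1* at 78.1 and 9.78.

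The 15 widest rises, leaving out predicted gene models, ran from 3.56 to 4.85. They were *Pga5*, *Igfbp1*, *Tbx2*, *Prrx2*, *Lars2*, *Lyz2*, *Smim24*, *Cited1*, *Cldn7*, *Pitx1*, *Col3a1*, *Aqp8*, *Spock1*, *Amn* and *Pkdcc*. *Pga5*, a pepsinogen gene, was at 1.57 FPKM in JGES and 73.2 in JGESO, and at 1.70 and 20.7 in the same libraries with BMP4. *Igfbp1*, which encodes a binding protein of insulin-like growth factors, was at 0.24 and 26.9, and at 67.0 and 61.0 with BMP4. In JGE and JGEO neither gene reached 1 FPKM. The 15 widest falls ran from -4.52 to -3.73 and were *Fkbp3*, *Zfp990*, *Zfp980*, *Rex2*, *Atrx*, *Cacybp*, *Tdgf1*, *Zfp979*, *Ogt*, *Mdm4*, *Hba-a1*, *Top2a*, *Tfrc*, *Zfp984* and *Hmgn5*. *Fkbp3*, a nuclear prolyl isomerase gene, was at 151 and 5.62. After centring by GC content these 15 falls ran from -4.58 to -1.90, and *Hba-a1* was the one gene that was also among the 15 widest falls of the centred ranking. Centred values of single genes used bins over genes at 1 FPKM or more. The centred ranking used bins over genes at 5 FPKM or more, so its order can differ from these values. For the rises the centred values ran from 2.68 to 5.002, and 5 genes (*Igfbp1*, *Lars2*, *Lyz2*, *Pga5* and *Spock1*) were in both rankings. In the centred rankings some genes also stand under a second name (*Smim27* and *Toporsos*, *Atp5md* and *Usmg5*, *Hist1h4f* and *H4c6*). Each of these rankings thus holds fewer than 15 separate genes. The genes *Zfp979*, *Zfp980*, *Zfp984*, *Zfp990* and *Rex2* encode related zinc-finger proteins and may share reads, so each level is uncertain.

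The same factor was added in 3 further pairs, which share no library with JGESO and JGES without BMP4. Over the 10132 genes, 1434 (14.2%) were higher and 2297 (22.7%) lower in JGESO minus JGES with BMP4, 919 (9.07%) and 1026 (10.1%) in JGEO minus JGE, and 575 (5.68%) and 236 (2.33%) in JGEO minus JGE with BMP4. Of the 1954 higher genes, 38.8% were also higher with BMP4, 11.3% in JGEO minus JGE and 6.45% in JGEO minus JGE with BMP4. Of the 3306 lower genes the shares were 65.4%, 24.3% and 1.57%. The pair with BMP4 holds the other library that the labels call total RNA.

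The lists differed in how far they held in those pairs. The median of the PrE list was 1.27 with BMP4, 0.37 in JGEO minus JGE and 0.60 in the latter with BMP4, with 9 of 12 genes higher and 0 lower in the first, 3 and 2 in the next and 2 and 0 in the last. Centred by GC content within each pair, over the members that reached 1 FPKM in that pair, these medians were 0.75, 0.34 and 0.45, so the first came under 1. The pluripotency list had a median of 1.30 with BMP4, 2.92 in JGEO minus JGE and 3.52 with BMP4, opposite to the -0.99 of the pair described here, and its centred medians were 1.77, 2.74 and 3.41. The BMP targets had medians of 0.51, 0.36 and -1.22 (0.45, 0.36 and -1.39 centred). The fibroblast genes had medians of 0.71, -0.64 and -0.62 (0.45, -1.02 and -0.77 centred), and the macrophage genes of 1.47, -0.81 and -0.42 (1.05, -1.08 and -0.56 centred).

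Where the called genes are used was read from single-cell RNA-seq of JGES cells at day 7 without BMP4, in which the authors assigned 8685 cells to 4 types. UMI counts were summed over 6211 intermediate, 1825 pluripotent, 507 endothelial and 142 ParE cells, the last a type that carried the PrE genes, and no doublets were removed here beyond the filtering of the authors. Of 9141 tested genes found there, 32.2% had their highest CPM (UMI counts scaled to a common total per cell type) in ParE, 29.8% in pluripotent, 21.1% in intermediate and 16.9% in endothelial cells. Of the higher genes 40.9% were highest in ParE, 16.8% in pluripotent, 27.3% in intermediate and 14.98% in endothelial cells. Of the lower genes these shares were 29.9%, 36.8%, 18.2% and 15.1%. After centring they were 42.1%, 22.1%, 22.8% and 13.0% for the higher genes and 19.5%, 40.0%, 20.8% and 19.7% for the lower genes.

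**Figure D5:**
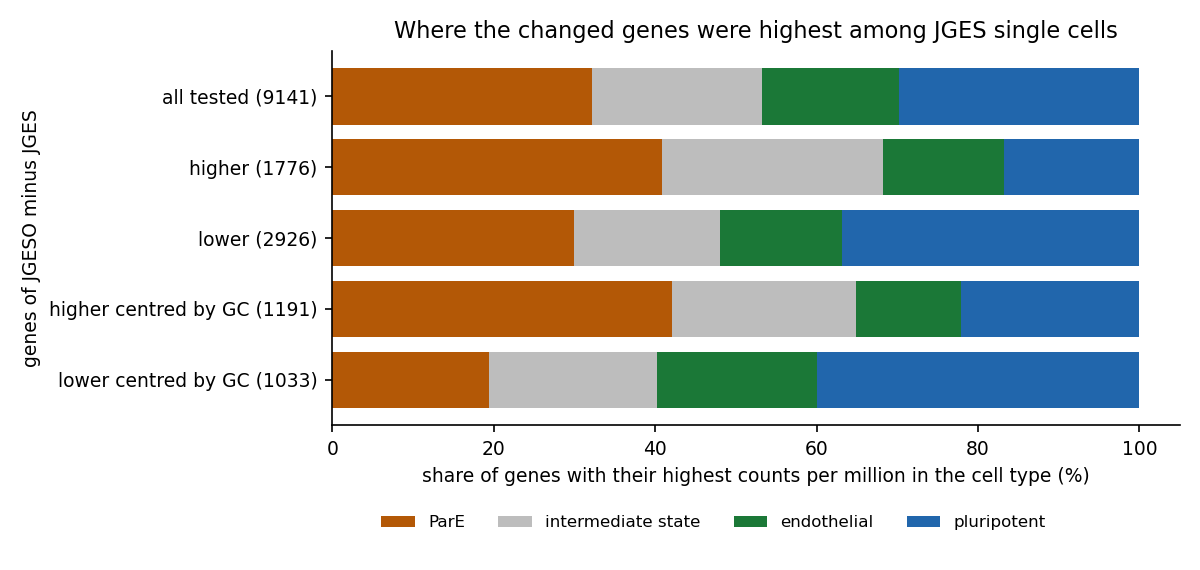
Each bar splits a group of genes of the JGESO and JGES comparison by the JGES cell type (without BMP4) in which the gene had its highest CPM, in percent of the genes found in the single-cell table. ParE holds 40.9% of the higher genes and 32.2% of all tested genes, and pluripotent cells hold 36.8% of the lower genes and 29.8% of all.

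Single genes were read in the same library. *Gata4* was at 59.8 CPM in ParE cells (95% exact Poisson interval 49.3 to 71.9, counting error only) and at 0.34 in pluripotent cells (0.16 to 0.62). *Sox17* was at 155 and 1.01 CPM, and *Dab2* at 353 and 1.75. *Nanog* was at 5.82 CPM in ParE (2.90 to 10.4) and at 99.9 in pluripotent cells (96.4 to 104). All 12 PrE genes had their highest level in ParE and 18 of 20 pluripotency genes in pluripotent cells. The PrE genes were chosen with these cells in view, and ParE is the type that carried them. Both lists were chosen with earlier results of these data known, so these 2 counts are no independent evidence. Of the BMP targets 7 of 11 were highest in the intermediate cells, as were 15 of 21 fibroblast genes and 25 of 25 *Hox* genes. Of the macrophage genes 8 of 9 were highest in the endothelial cells. Among the widest rises *Prrx2* was highest in the intermediate cells (53.5 CPM against 2.12 in ParE) and *Lyz2* in the endothelial cells (10.8 against 0.24 in pluripotent cells), and among the widest falls *Ogt* was at 109 CPM in intermediate and 98.3 in pluripotent cells.

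SALL4 peaks of cells with wild-type SALL4 alone were set against the same genes. A peak within 2 kb of a start site was listed for 79.1% of the 9900 tested genes with a start, for 71.0% of the higher genes and 83.7% of the lower genes. After centring the shares were 76.1% and 74.4%, so that the gap between higher and lower genes seen before was no longer there. Between day 0 and day 5 of JGES without BMP4, in the table of 17 libraries, 16.7% of the tested genes were higher by at least 1 at day 5 and 7.65% were lower. Of the genes lower in JGESO 16.8% and 3.74% did so, and of the genes higher in JGESO 14.1% and 15.8%. After centring, 27.6% of the lower genes were higher at day 5 than at day 0 and 4.79% were lower, and of the higher genes 15.9% and 12.8%.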

How the data were processed

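Per the submitters' processing notes, Trim Galore 0.6.4, HISAT2 2.2.1 with mm10 and StringTie 2.2.1 gave the FPKM values that the authors deposited; numbers of reads behind them are unknown. For scRNA-seq, the authors deposited UMI counts and a cell type per cell, and for Cut&Tag peaks with a score. The table of 17 libraries has 8 columns not used here.

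The difference of log2(FPKM + 1) was computed in Python 3.11.15 with pandas 2.3.3 and numpy 2.4.6. Only the centring by GC content was tested on simulated data. Short RNAs (by name, type or under 200 bases) and second names with identical values were left out, the latter after the data were seen. GC content was that of the longest protein-coding GENCODE transcript. Named genes are the delivered factors, the 15 widest rises and falls at an FPKM of at least 5 without predicted models, and list members; genes of the closing observations were chosen after their values were seen. The study used a read-based comparison, which FPKM do not allow. The members and lists were chosen with earlier results of these data known. Whether the libraries came from separate cultures is not given in the sources used here.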

Additional observations from a re-analysis of the deposited data

Results flagged for a closer look

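JGESO minus JGES was set against the same pair with BMP4 and against JGEO minus JGE. In 5 cases the median of a gene list, as deposited, lay at least 0.5 from 0 on opposite sides in the 2 pairs, and the difference was not tested since each condition has 1 library. The pluripotency list was at -0.99 in JGESO minus JGES and at 1.30 in the same pair with BMP4, a gap of -2.29. Against JGEO minus JGE, where it was at 2.92, the gap was -3.90. The BMP ligands were at 1.11 in JGESO minus JGES and -0.90 in JGEO minus JGE, a gap of 2.01. The fibroblast genes were at 0.97 and -0.64, a gap of 1.61, and the macrophage genes at 1.62 and -0.81, a gap of 2.43. Of the 6 macrophage markers 5 were listed at 0 in JGES, and such genes enter the list only through JGESO. The sign of the macrophage median in JGESO minus JGES is thus in part set by the filter. Smaller medians and JGEO minus JGE with BMP4, where further lists such as the BMP targets also had the opposite sign, were not part of this count.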

How the results depend on the processing

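No paired analysis was possible because the 2 groups compared have 1 library each and share 1 replicate number; a joint fit over the 4 pairs with and without Oct4, which differ in factors and BMP4, was not run. The centring by GC content, alone or with transcript length, was chosen after the data were seen. The numbers of higher and lower genes were 1954 and 3306 as reported, 1301 and 1139 centred by GC content, 1277 and 1122 centred by GC content and length, and 264 and 1659 at a difference of at least 2. With a pseudocount of 0.1, median-ratio scaling, a filter at FPKM of at least 1, a common FPKM sum or the JGES column of the table of 17, both numbers stayed within 1.5 times. List medians moved under centring by GC content to 0.39 (parietal endoderm), 1.08 (endocytic), 0.33 (BMP ligands), -0.042 (germline), -1.10 (endothelial), -1.14 (blood), 0.97 (macrophage) and 0.22 (AP-1), and with length to 0.40 (BMP ligands), -0.16 (Nodal), -0.35 (germline), -1.13 (endothelial), -1.17 (blood), 0.88 (macrophage) and 0.15 (AP-1). With a filter at FPKM of at least 5 the medians were 1.94 (visceral endoderm), -3.04 (germline), -1.91 (blood) and -0.86 (muscle and neuron). With a pseudocount of 0.1 they were -2.60 (germline) and 4.44 (macrophage), with a common FPKM sum 2.46 (macrophage), and without a filter 0.092 (BMP ligands). The share of higher genes also higher elsewhere was 21.2% with BMP4, 3.03% in JGEO minus JGE and 2.27% in the latter with BMP4 at a difference of at least 2, and 9.93% in the last with a pseudocount of 0.1. For lower genes these shares were 3.68% in JGEO minus JGE and 0.121% with BMP4 at a difference of at least 2, and 3.19% with BMP4 at a pseudocount of 0.1. The cause of these shifts was not tested. The depth of the FPKM is unknown, so low values have no counting interval.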

Other observations

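*Xist*, the RNA of the inactive X chromosome, was at 38.9 FPKM in JGES and 4.77 in JGESO, and at 39.7 and 2.83 in these libraries with BMP4. The Y-linked genes *Ddx3y* and *Eif2s3y* were at 7.43 and 9.87 FPKM in JGES and at 0.27 and 1.01 in JGESO. Their transcripts are AT-rich, and centred by GC content the differences came to just within 1 for *Xist* (from -2.79), -0.83 for *Ddx3y* (from -2.73) and -0.54 for *Eif2s3y* (from -2.44). The Y-linked genes *Kdm5d* and *Uty* came to -0.11 (from -1.70) and 0.44 (from -1.46). Centred in the pair with BMP4, the differences were -1.87 for *Xist*, -1.07 for *Eif2s3y* and -0.94 for *Ddx3y*. In that pair *Kdm5d* was at -0.67 and *Uty* at -0.025. These genes, *S100g* and *Adam11* were chosen after their values were seen. Among genes centred by GC content, *S100g*, a calcium-binding protein gene of visceral endoderm and gut, stood at 14.7 FPKM in JGES and 159.3 in JGESO, and *Adam11* had one of the widest falls at 40.7 and 5.26. With BMP4 *S100g* was at 80.1 in JGES and 252 in JGESO, and *Adam11* at 1.85 and 2.28. In JGE and JGEO without BMP4 *S100g* ran the opposite way, at 50.5 and 0.78, and *Adam11* was at 37.2 and 15.5.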
